A study of Mus musculus with 18 samples.

Results

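The 6 genes described here encode the sarcomeric myosin heavy chains of limb muscle fibres: Myh7 (slow), Myh2 (type IIa), Myh1 (type IIx), Myh4 (type IIb), Myh3 (embryonic) and Myh8 (perinatal). They were found by matching the Ensembl identifiers of the count table to mouse symbols. They are 6 of the 43430 genes in the table, and all 6 were among the 13596 genes that passed the filter on low counts. The sequenced RNA came from quadriceps myofibers of adult C57BL/6 mice, for which the labels list no transgene. The libraries fall into 6 groups of 3 mice: males and females, each injected with vehicle or with prednisone, a synthetic glucocorticoid, on a weekly or a daily schedule. Each library came from 1 mouse. The myofibers were the fraction held back by a strainer after collagenase digestion, so the groups stand for quadriceps fibres with whatever other cells stayed attached to them.

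Myosin heavy chain is the motor of the thick filament, and the chain that a fibre makes largely sets how fast it contracts. Slow oxidative fibres carry the Myh7 chain, IIa and IIx fibres are fast and more or less oxidative, and IIb fibres are the fastest and most glycolytic. Most of the mouse quadriceps is made of fast fibres, while the embryonic and perinatal chains belong to developing and regenerating muscle.

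In every library the IIb gene Myh4 supplied most of the myosin heavy chain transcripts, and the slow gene Myh7 was close to absent in most of them. Myh4 varied 2.26-fold between libraries, and the minor chains varied more in relative terms. Levels of Myh7, Myh2, Myh1 and the low-count Myh3 were correlated across libraries, along with the slow-fibre troponins and the light chains Myl2 and Myl3. Of all Myh7 counts, 3 treated libraries held 96.4%. Among 12 comparisons, the only member that passed the test was Myh8, which was higher with daily prednisone by 1.01 ± 0.26 on the log2 scale (standard error (SE), mean of both sexes), at a level of a few CPM (counts scaled to a fixed library total). In that daily comparison 15% of all 13596 tested genes passed, so the share of members that passed was near the background. No member passed the test with weekly prednisone, and by the same test no other gene did either.

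The genes Myh3, Myh2, Myh1, Myh4 and Myh8 lie in this order in a cluster on the plus strand of chromosome 11. In mm10 coordinates, as deposited, Myh3 (ENSMUSG00000020908) spans chr11:67078300-67102291 and Myh2 (ENSMUSG00000033196) spans chr11:67171027-67197517. They are followed by Myh1 (ENSMUSG00000056328) at chr11:67200052-67224575, Myh4 (ENSMUSG00000057003) at chr11:67238029-67260446 and Myh8 (ENSMUSG00000055775) at chr11:67277124-67308634. Myh7 (ENSMUSG00000053093) lies apart, on the minus strand at chr14:54970688-54994634. The messages are of nearly equal size. The reference transcripts of GENCODE mouse release 21 run from 6016 bases for Myh4 to 6230 for Myh7, and code for 1935 (Myh7) to 1942 (Myh2 and Myh1) residues.

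The 3 adult fast genes also share sequence just before their starts. The 250 bases before the start of each are shown because these genes are neighbours whose levels are compared below. They are given 5′ to 3′ on the plus strand from RefSeq (GRCm38.p6), and capitals mark the runs of 9 or more bases that all 3 genes share.
Myh2, chr11:67170777-67171026: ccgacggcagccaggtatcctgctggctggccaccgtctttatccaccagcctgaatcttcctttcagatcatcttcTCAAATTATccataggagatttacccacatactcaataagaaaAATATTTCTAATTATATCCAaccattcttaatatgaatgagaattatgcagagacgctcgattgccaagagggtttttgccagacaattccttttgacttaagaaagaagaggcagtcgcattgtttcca
Myh1, chr11:67199852-67200101: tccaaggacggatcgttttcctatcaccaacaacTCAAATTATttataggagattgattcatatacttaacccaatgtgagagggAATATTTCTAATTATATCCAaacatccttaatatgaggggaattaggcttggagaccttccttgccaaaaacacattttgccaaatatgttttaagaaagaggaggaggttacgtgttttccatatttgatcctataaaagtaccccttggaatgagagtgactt
Myh4, chr11:67237562-67237811: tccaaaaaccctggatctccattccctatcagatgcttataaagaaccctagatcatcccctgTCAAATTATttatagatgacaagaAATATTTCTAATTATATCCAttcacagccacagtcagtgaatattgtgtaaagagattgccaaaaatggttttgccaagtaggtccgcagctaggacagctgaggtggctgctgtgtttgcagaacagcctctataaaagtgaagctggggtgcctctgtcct
The run of 20 bases, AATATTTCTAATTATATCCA, was found in 3 of 32851 mouse promoter windows of this length, which are these 3 genes. It begins 130 bases before the listed start in Myh2, 165 in Myh1 and 163 in Myh4. The shorter run of 9 bases, TCAAATTAT, is also in the Myh8 window and was found in 57 of 32851 windows (0.174%). Both counts took either strand and exact matches only. The Myh8 window also holds a near copy of the run of 20 bases, aatacttctaattatatccg. The listed start differs from the GENCODE gene start by 50 bases in Myh1 and 217 in Myh4. Of 6 short motifs searched on both strands, with matches of different motifs allowed to overlap, the E-box CANNTG had 2 matches in the Myh4 window and 1 each in those of Myh7, Myh3 and Myh8, and 66.2% of all windows hold it. The glucocorticoid receptor half-site AGAACA had 1 match, in the Myh4 window, and 16.1% of all windows hold it. The TEAD motif CATTCC had 1 match each in the Myh7, Myh1 and Myh4 windows, against 12.6% of all windows. The TATA motif, TATAAA or TATATA, matched 3 times in the Myh4 and Myh3 windows, 2 times in that of Myh1 and 1 time in that of Myh8 (15.6% of all windows). The A/T-rich MEF2-like motif had 1 match each in the Myh1, Myh4 and Myh8 windows (1.69%), and the CArG box of serum response factor had 1 in the Myh4 window (1.47%). These are matches of letters, and binding was not measured here.

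Total counts ranged from 10506661 to 14686654 per library. Mitochondrially encoded genes took from 11.7% (female daily replicate 1) to 36.4% (female weekly replicate 2) of the counts. Summed myofibre markers (Acta1, Ckm, Ttn, Neb, Mb and Des) lay between 49900 and 86600 CPM, after scaling by the trimmed mean of M values (TMM), against 23.4 to 41.9 for 4 satellite cell markers. Of the heart markers, Myl7 was at 0 in all libraries and Nppa reached at most 0.435 CPM. Summed adipocyte markers (7 genes) ranged from 308 to 735 CPM in vehicle, from 638 to 3140 in daily and from 654 to 5340 in weekly libraries. With daily prednisone 6 of these 7 passed the test upwards (mean of both sexes), against 7.48% of all genes, for example Adipoq by 2.99 ± 0.64 (SE, adjusted p = 0.00746). Of 4 smooth muscle, 3 endothelial, 3 fibroblast and 3 macrophage markers, only Cd68 of macrophages passed (1.41). No 2 libraries of a group agreed within sampling noise.

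Levels of the 6 genes were compared per length, as CPM per kilobase of transcript. The order Myh4 above Myh1 above Myh2 above the other members held in 18 of 18 libraries. Myh4 had a median of 8510 CPM per kilobase, Myh1 of 214 and Myh2 of 21.9. The medians of Myh8 (0.366), Myh7 (0.321) and Myh3 (0.176) were close, and their ranges overlapped. Myh8 was above Myh7 in 10 of 18 libraries and above Myh3 in 16, and Myh7 was above Myh3 in 14. Before scaling, the 6 genes took between 3.13% and 7.66% of all counts of a library.

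As a share of the length-scaled sum of the 6 genes, Myh4 made up 96.1% ± 3.48 (SD, n = 18), with a lowest value of 84.2% in female weekly replicate 1 and a highest of 99.3% in female vehicle replicate 2. Myh1 had a median share of 2.75% (range 0.615% to 9.78%). The median share of Myh2 was 0.312% (0.0187% to 4.32%), and that of Myh7 was 0.00401%, with 1.67% in female weekly replicate 1. The plot of shares by library shows that this library and male weekly replicate 3 stood above the others, and that the height of the bars differed more within groups than between them.

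**Figure D1:**
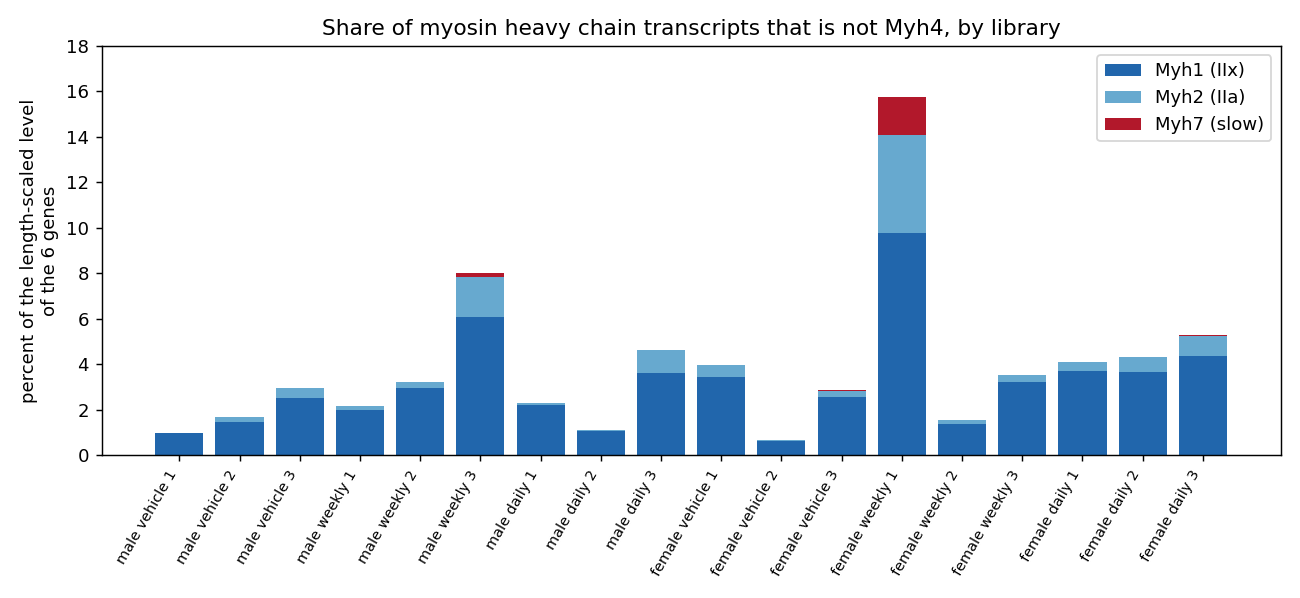
Share of the length-scaled level of the 6 myosin heavy chain genes (percent, y axis) that fell on Myh1, Myh2 and Myh7 in each of 18 libraries (x axis). Myh4 makes up nearly all of the rest. The tallest bar is female weekly replicate 1, where Myh1 held 9.78%, Myh2 4.32% and Myh7 1.67%.

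Members differed sharply in how much they varied between mice of the same group. The within-group standard deviation of log2 CPM was 2.74 for Myh7, 1.92 for Myh2, 0.96 for Myh1 and 0.26 for Myh4. The median over all 13596 tested genes was 0.28. Myh7 therefore ranked 2 among all genes, behind Myl3, the slow essential light chain, and Myh2 ranked 13. The spread thus grew stepwise from the IIb to the IIx, IIa and slow gene. Among the other most variable genes were the slow-fibre genes Myl2 (2.29), Csrp3 (2.07), Tnni1 (2.01), Tnnt1 (2.01) and Tnnc1 (1.75), while the fast-fibre genes Tnnt3 (0.23), Tnnc2 (0.24) and Atp2a1 (0.20) lay near the median. The slow-fibre genes Tpm3 (0.56), Atp2a2 (0.56), Casq2 (0.49) and Myl6b (0.42) varied much less. Genes that are not of slow fibres, such as Ucp1 (2.7) and Il6 (2.31), were also among the most variable. Myh3 (0.97) and Myh8 (0.44) also varied, but they rest on at most 50 and 81 counts per library.

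Myh7, the slow chain, had 11976 counts over all libraries, and 83.2% of them came from female weekly replicate 1. In males it was at 0, 0.883 and 1.98 CPM with vehicle, at 2.99, 2.02 and 94.6 with weekly prednisone and at 0.904, 0.943 and 21 with daily prednisone (replicates 1, 2 and 3). The count of 0 in male vehicle replicate 1 has an exact Poisson 95% interval of 0 to 0.324 CPM, and 3 counts would give 0.263 CPM. In females the values were 1.95, 0.109 and 1.97 with vehicle, 668, 0.862 and 6.86 with weekly and 2.23, 5.03 and 4.29 with daily prednisone. The high libraries were thus female weekly replicate 1, male weekly replicate 3 and male daily replicate 3, and the other 15 reached at most 6.86 CPM. Counting error was small beside this: the exact Poisson 95% interval of female weekly replicate 1 was 655 to 681 CPM, which covers counting error only.

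**Figure D2:**
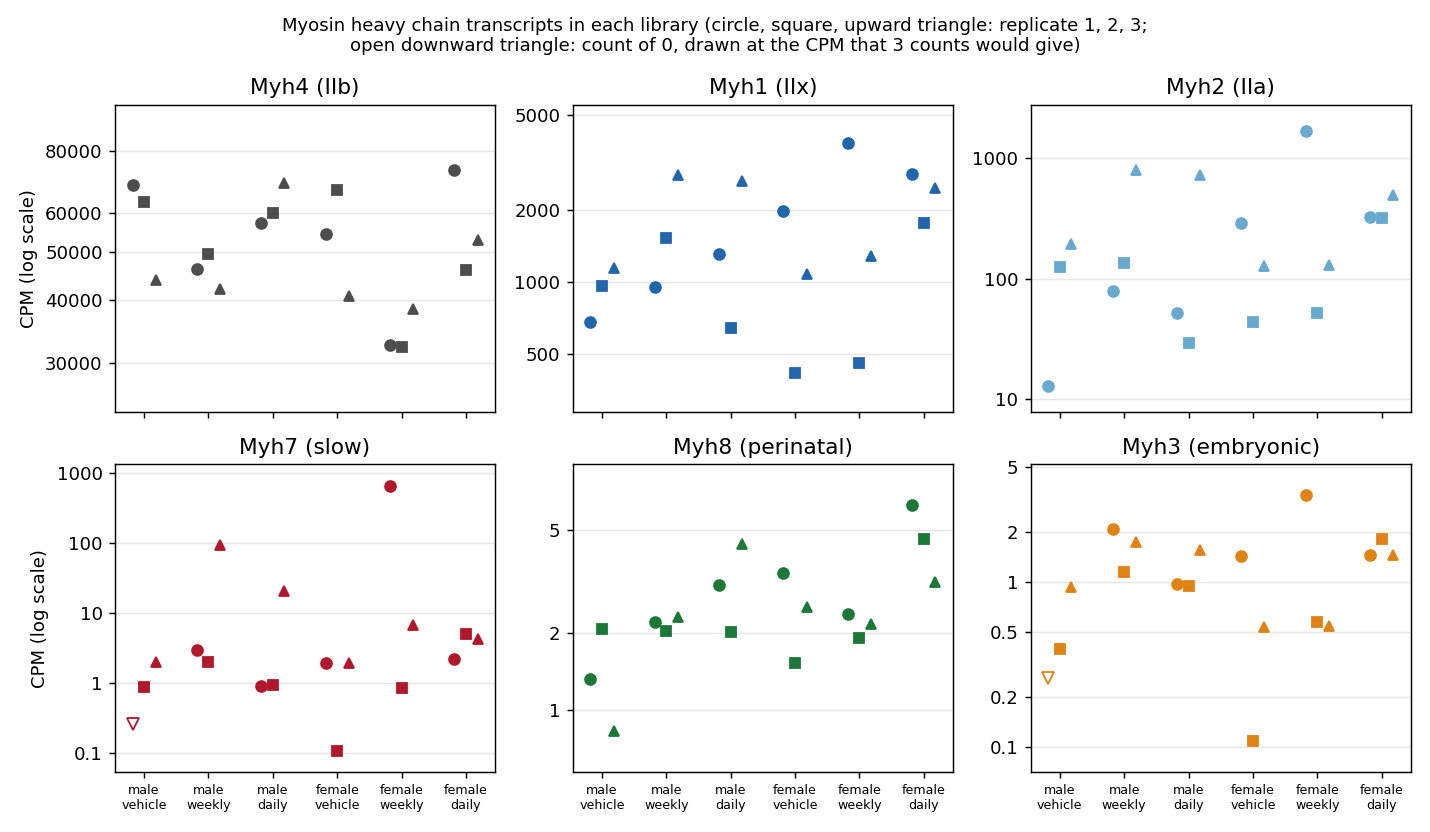
Level of each myosin heavy chain gene in each library (CPM with TMM scaling, log axis, a scale per panel) by group (x axis). Symbols stand for replicates 1, 2 and 3, and an open downward triangle marks a count of 0, drawn at the level of 3 counts. Myh4 stayed within 32300 to 73100 CPM, whereas Myh7 ran from 0 to 668.

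Myh2, the IIa chain, followed the same libraries. In males it was at 13, 126 and 194 CPM with vehicle, 78.9, 135 and 804 with weekly and 52.3, 29.5 and 729 with daily prednisone. In females it was at 292, 44 and 127 CPM with vehicle, 1680, 52.2 and 131 with weekly and 323, 322 and 499 with daily prednisone. The highest library was 130-fold above the lowest. All 3 daily females lay above all 3 vehicle females, as for Myh7, while the other treated groups overlapped with their vehicle group in Myh2. For Myh7 the nearest values were 2.23 (daily) and 1.97 CPM (vehicle), with overlapping Poisson 95% intervals (1.49 to 3.2 and 1.23 to 2.98). Separations of this kind, here and below, are descriptions, and the share of all genes that separated in the same way was not computed.

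Myh1, the IIx chain, ranged from 417 CPM in female vehicle replicate 2 to 3810 in female weekly replicate 1, a 9.14-fold range. Its group means were 932 ± 235 (SD, n = 3) in vehicle, 1770 ± 950 in weekly and 1530 ± 1020 in daily males. In females they were 1160 ± 785, 1860 ± 1740 and 2370 ± 540. The groups overlapped in both sexes.

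Myh4, the IIb chain, varied least, with a 2.26-fold range. In males it was at 68100, 63100 and 43900 CPM with vehicle, 46300, 49600 and 42100 with weekly and 57200, 60000 and 68900 with daily prednisone. In females it was at 54400, 66700 and 40900 CPM with vehicle, 32500, 32300 and 38400 with weekly and 73100, 46000 and 52800 with daily prednisone. The 3 weekly females were the 3 lowest of all libraries, and in both sexes the weekly and daily groups did not overlap.

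The correlation of the slow, IIa and IIx genes was tested over the 18 libraries, on log2 CPM with a prior count of 2. In all, 27 relations were computed, 15 between members and 12 with the mean of slow or fast partner genes, and 13 passed a Benjamini-Hochberg adjusted p of 0.05 by permutation test for Pearson's r. Myh2 and Myh1 had r = 0.89 (permutation p = 1e-05, the smallest the permutations can give, adjusted p = 9e-05) and Spearman's rho = 0.93 (permutation p = 1e-05). Myh7 and Myh2 had r = 0.87 (permutation p = 2e-05, adjusted p = 0.000135) and rho = 0.85 (permutation p = 1e-05). Myh7 and Myh1 had r = 0.78 (permutation p = 7e-05, adjusted p = 0.00036) and rho = 0.78 (permutation p = 0.00035). Without the 2 libraries farthest from the median of the first gene, r was 0.89, 0.83 and 0.73. The relations also stood within groups, as r of the deviations from the group means: 0.89 for Myh2 and Myh1 (adjusted exact permutation p = 0.00174), 0.93 for Myh7 and Myh2 (0.0044) and 0.87 for Myh7 and Myh1 (0.00858). The low-count Myh3 was correlated with the same genes, with r = 0.76 for Myh7, 0.76 for Myh2 and 0.75 for Myh1 (adjusted p = 0.00246, 0.000771 and 0.000979, permutation test). Without the 2 libraries farthest from the median of the other gene, its r was 0.78, 0.58 and 0.62. Within groups its r was 0.75, 0.78 and 0.70 (adjusted exact permutation p = 0.0113, 0.0113 and 0.0259). Myh1 and Myh8 also passed, with r = 0.60 (adjusted p = 0.019, permutation test).

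Myh4 did not share this pattern. Its r with Myh7 was -0.51 (permutation p = 0.0293, adjusted p = 0.0546), with rho = -0.35 (permutation p = 0.158), and -0.23 without female weekly replicate 1 and male weekly replicate 3. With Myh2 its r was -0.28 (permutation p = 0.257, adjusted p = 0.311; rho = -0.20, permutation p = 0.435), and with Myh1 -0.08 (permutation p = 0.745, adjusted p = 0.745; rho = -0.03, permutation p = 0.91). CPM are shares of 1 total, and Myh4 itself took 3.08% to 7.34% of all counts of a library.

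The slow partners were 12 genes of slow fibres: light chains (Myl2, Myl3, Myl6b), troponins (Tnnt1, Tnni1, Tnnc1), Tpm3, the calcium pump Atp2a2, the calcium store protein Casq2, and the Z-disc and titin-associated genes Myoz2, Csrp3 and Ankrd2. Their mean tracked Myh7 with r = 0.96 (permutation p = 1e-05, adjusted p = 9e-05; rho = 0.89, permutation p = 1e-05), and still with r = 0.90 without the 2 farthest libraries. It tracked Myh2 with r = 0.90 (permutation p = 1e-05, adjusted p = 9e-05; rho = 0.91, permutation p = 1e-05) and Myh1 with r = 0.76 (permutation p = 8e-05, adjusted p = 0.00036; rho = 0.80, permutation p = 0.00015). It also tracked Myh3, with r = 0.75 (adjusted p = 0.00213, permutation test), and 0.62 without the 2 libraries farthest from the Myh3 median. Single slow partners ranged widely in their r with Myh7, from 0.45 for Myl6b to 0.97 for Tnnc1. With Myh2 they ranged from 0.40 for Tpm3 to 0.95 for Myoz2, and with Myh1 from 0.22 for Tpm3 to 0.87 for Ankrd2. Of the 12, 10 had their highest level in female weekly replicate 1, where Myl2 reached 317 CPM against a median of 3.27, and Tnnt1 189 against 5.30. Male vehicle replicate 1 was the lowest library for 5 of them and female vehicle replicate 2 for 3. With Myh4 the slow mean had r = -0.59 (permutation p = 0.0082, adjusted p = 0.019) but rho = -0.42 (permutation p = 0.0885, adjusted p = 0.141). Within groups r was -0.38 (adjusted exact permutation p = 0.224), and without the 2 weekly libraries high in Myh7 it was -0.39 (adjusted p = 0.187, permutation test).

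The fast partners were Mylpf, Myl1, Tnnt3, Tnni2, Tnnc2, Tpm1, the calcium pump Atp2a1, the calcium store protein Casq1, Actn3, the calcium buffer Pvalb, Myoz1 and Mybpc2. Their mean did not pass with Myh4 over all libraries (r = 0.45, permutation p = 0.0624, adjusted p = 0.0991; rho = 0.46, permutation p = 0.0599). Within groups it did, with r = 0.74 (adjusted exact permutation p = 0.0367). Over all libraries the fast mean passed with Myh3 alone (r = -0.55, adjusted p = 0.0368, permutation test; rho = -0.33, permutation p = 0.181). That r was -0.02 without male vehicle replicate 1 and female vehicle replicate 2, and -0.23 within groups (adjusted exact permutation p = 0.592). Single partners ranged widely in their r with Myh4, from 0.11 for Mylpf to 0.84 for Atp2a1 and 0.87 for Mybpc2.

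**Figure D3:**
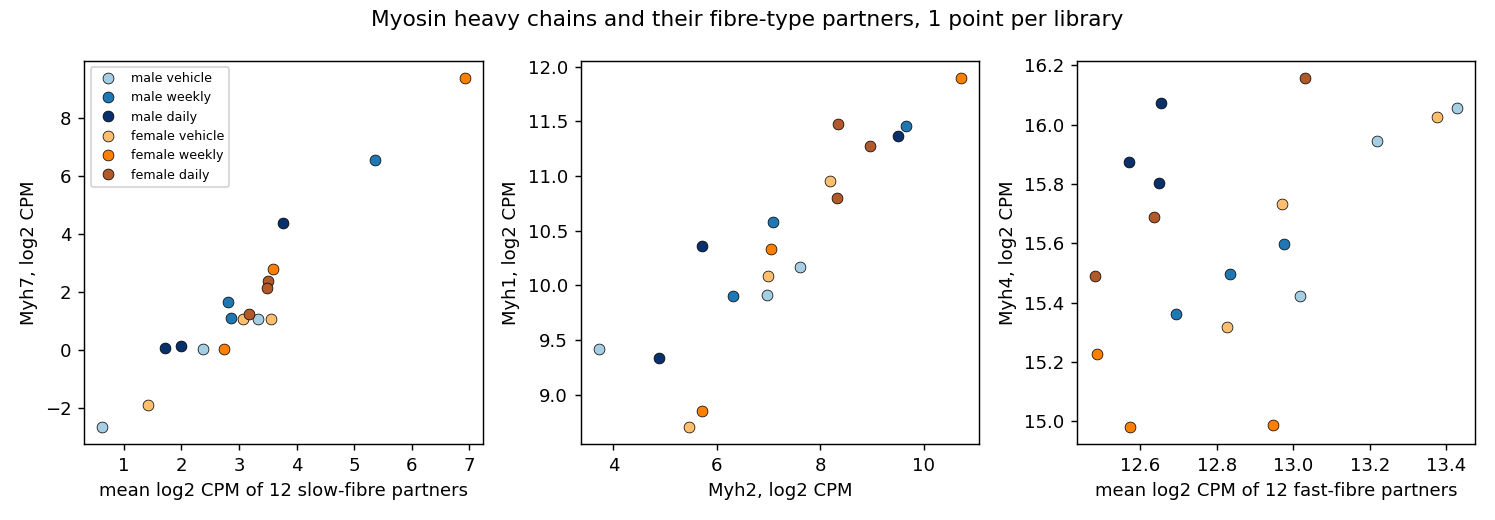
Log2 CPM of Myh7 against the mean log2 CPM of 12 slow-fibre partners (left), of Myh1 against Myh2 (middle) and of Myh4 against the mean of 12 fast-fibre partners (right), with 1 point per library and a colour per group. The left and middle points lie along a line (r = 0.96 and 0.89), and the right ones scatter (r = 0.45).

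The genes whose level followed each member most closely over the 18 libraries, given as a description by Pearson's r, differed between the chains. For Myh7 they were Tnnc1 (0.966), Tnni1 (0.955), Myl2 (0.933), Tnnt1 (0.921) and Bdh1 (0.919), which encodes a ketone body enzyme. Next to Myh2 came Myom3 (0.977), Fhl1 (0.968), Smtnl1 (0.965), Myoz2 (0.954) and Ldhb (0.950), and next to Myh1 came Atp1b1 (0.940), Actn2 (0.937), Tmem65 (0.912), Lmod2 (0.910) and Fhl1 (0.901). Myh4 was followed by Camsap1 (0.975), Myo18a (0.929), Myom2 (0.928), Specc1l (0.925) and Mtmr3 (0.913). For Myh3 they were Fgf1 (0.903), Myh7b (0.884), Fam240a (0.858), Myl10 (0.851) and Tnnt1 (0.842), and for Myh8 Wdr44 (0.872), Phip (0.866), Tut4 (0.862), Rif1 (0.850) and Zcchc7 (0.841). All points share library depth and composition.

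Daily prednisone was compared with vehicle to ask whether the fibre-type chains changed under the regimen. In the mean of both sexes, 1 of 6 members was called by edgeR, Myh8, against a background of 15% of all 13596 genes (7.48% higher, 7.47% lower), so the share of members called was near the background. Myh8, the perinatal chain, was at 1.32, 2.06 and 0.833 CPM in vehicle and 3.06, 2.01 and 4.41 in daily males. In females it was at 3.39, 1.52 and 2.51 CPM with vehicle and 6.22, 4.59 and 3.14 with daily prednisone. In both sexes 2 of 3 daily libraries lay above all vehicle libraries and the third overlapped with them. The log2 fold change was 1.01 ± 0.26 (SE, adjusted p = 0.0146) in the mean of both sexes, 1.14 ± 0.38 (adjusted p = 0.0797) in males and 0.89 ± 0.35 (adjusted p = 0.195) in females. Bulk RNA does not tell fewer cells of a type from less RNA per cell.

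The Myh8 call had several limits. It rests on 8 to 81 counts per library, and the median library had 18000 times as many Myh4 counts. Of all 75-base stretches of the Myh8 transcript, 11.4% also occur in the transcript of another member, and the part of reads assigned between members was not tested. The call was lost with the adipocyte score as a covariate (1.13 ± 0.40, adjusted p = 0.179), as was every other call of this comparison (0 of 13596 genes, against 2033), after a trend on gene length and GC content was taken out (0.88 ± 0.27, adjusted p = 0.0732), which left 508 genes called, and without male vehicle replicate 1 and female vehicle replicate 2 together (0.87 ± 0.28, adjusted p = 0.0789).

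The other members did not pass with daily prednisone. In the mean of both sexes the log2 fold change was 2.22 ± 1.67 for Myh7 (SE, adjusted p = 0.419), 1.29 ± 1.0 for Myh2 (0.43), 0.87 ± 0.49 for Myh1 (0.264) and 1.26 ± 0.59 for Myh3 (0.169). The difference of Myh4 was 0.09 ± 0.16 (adjusted p = 0.769), the smallest of the 6. At an unadjusted p under 0.05 there were 2 members, Myh8 and Myh3, against 29.2% of all genes. Without male daily replicate 3 the Myh2 value turned to -0.05 and that of Myh7 fell to 0.76. Within sexes no member was called, against 6.46% of all genes in males and 0.382% in females, with 1 member (Myh8) at an unadjusted p under 0.05 in each, against 22.8% and 17.3% of all genes. The counts of called genes behind these shares, 878 in males and 52 in females, moved with single libraries. Leaving out 1 library gave 92 (without male vehicle replicate 1) to 414 in males. In females it gave 0 (without female vehicle replicate 2, or without female daily replicate 2 or 3) to 126 (without female daily replicate 1), and 1 without female vehicle replicate 1. DESeq2 and limma-voom also called only Myh8 in the mean of both sexes, but DESeq2 gave Myh7 no p in any comparison.

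**Figure D4:**
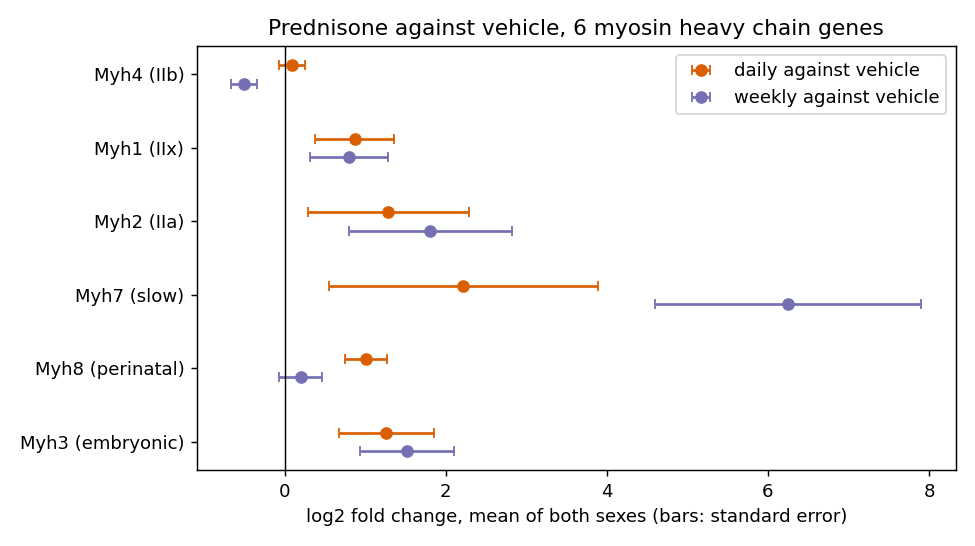
Log2 fold change (x axis) of each member with daily and with weekly prednisone against vehicle, as the mean of both sexes, with standard errors as bars. The Myh8 value with daily prednisone (1.01) is the only one that passed the test, and the largest value, Myh7 with weekly prednisone (6.25), has the widest bar but one.

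Beside the myosins, most of the listed genes of fast fibres were lower with daily prednisone. Of the 12 fast partners, 9 passed as lower in the mean of both sexes, against 7.47% of all genes, and none as higher. Their median was -0.49 against 0.02 over all genes, and 1 of the 12 had a positive value. Pvalb changed by -0.92 ± 0.14 (SE, adjusted p = 0.00109), Tnnc2, the fast calcium-binding troponin, by -0.88 ± 0.15 (0.00153) and Tnni2 by -0.71 ± 0.15 (0.00525). Myh4 itself did not move with them. None of the 12 slow partners passed, with a median of 0.31. The fast count was 0 with the adipocyte score as a covariate (median -0.47), where no gene of 13596 was called. It was 2 with the length and GC trend removed (median -0.26), where 508 of all genes were called, and 4 without any 1 of male vehicle replicate 1, female vehicle replicate 2, male daily replicates 1 or 3 or female daily replicates 2 or 3. It was 3 without both of those vehicle libraries together.

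Of 27 regulators of fibre type, 5 rose with daily prednisone in the mean of both sexes, against 7.48% of all genes, and none fell. Among them were Eya4, a transcriptional cofactor in fast fibres, by 0.99 ± 0.20 (SE, adjusted p = 0.0048), Fnip1 by 0.75 ± 0.18 (0.0119), Sox6, a repressor of slow genes, by 0.57 ± 0.15 (0.0159) and Mef2a by 0.47 ± 0.11 (0.00838). Of 10 tested genes of denervated or regenerating muscle, Actc1, the cardiac actin of developing muscle, fell by 1.17 (-1.17 ± 0.31, adjusted p = 0.0189) and none rose. Of 10 sarcomere genes common to all fibres, Neb, the thin filament ruler, rose by 0.68 ± 0.19 (adjusted p = 0.0221). Each of these lists thus had 1 call among 10 genes, near the background of 7.47% of all genes lower and 7.48% higher. Of 7 other tested myosin heavy chain genes none passed. All these calls of regulators, Actc1 and Neb were lost with the adipocyte score as a covariate and with the length and GC trend removed. Without male vehicle replicate 1 and female vehicle replicate 2 together, 3 regulators were called and neither of the others. The Actc1 call was also lost without either of these libraries alone and with no filter.

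Weekly prednisone was compared with vehicle in the same way. No member was called, and neither was any other gene (0% of 13596) in males, females or the mean of both sexes, by edgeR. Without female weekly replicate 2, edgeR called 253 genes in females and 174 in the mean of both sexes, and again no member. At an unadjusted p under 0.05 there were 1492 genes in the mean of both sexes, 3 of them members (Myh7, Myh4 and Myh3). DESeq2 called 0 genes in males, 149 in females and 180 in the mean, and limma-voom called 0 in each, with no member among any of these.

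Myh7 had the largest difference of the members with weekly prednisone. The log2 fold change was 6.25 ± 1.65 (SE, adjusted p = 0.208) in the mean of both sexes, 5.18 ± 2.35 (0.849) in males and 7.32 ± 2.35 (0.361) in females. All 3 weekly males lay above all vehicle males, though by 2.02 against 1.98 CPM at the nearest, while weekly and vehicle females overlapped. These sizes came from single libraries: without female weekly replicate 1 and male weekly replicate 3 the mean of both sexes was 1.46 ± 1.05 (adjusted p = 0.506). In females the value was 1.5 without female weekly replicate 1 alone, and in males it was 1.46 without male weekly replicate 3 alone.

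Myh2 differed by 1.81 ± 1.01 (SE, adjusted p = 0.528), Myh1 by 0.80 ± 0.49 (0.577), Myh3 by 1.52 ± 0.58 (0.347) and Myh8 by 0.20 ± 0.27 (0.823) in the mean of both sexes. Without the same 2 libraries Myh2 turned to -0.41 and Myh1 to -0.01. Myh4 was the 1 member with a negative value, -0.50 ± 0.16 (adjusted p = 0.265). It was -0.65 ± 0.23 (adjusted p = 0.408) in females, where all 3 weekly libraries lay below all vehicle libraries, and -0.34 ± 0.23 (0.851) in males, where they overlapped. Without the 2 libraries high in Myh7 the mean of both sexes was still -0.45. None of the 12 slow partners passed with weekly prednisone, although all 12 had positive values (median 1.5), and none of the 12 fast partners did (median -0.39). The mean log2 CPM of the slow partners was 6.92 in female weekly replicate 1 and 5.37 in male weekly replicate 3. In the other weekly libraries it was 2.75 to 3.59, against 0.63 to 3.56 in vehicle libraries. The slow median without those 2 weekly libraries was not computed.

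Daily and weekly prednisone were compared directly within each sex. No member and no other gene was called by edgeR (0% in either sex). In females this count over all genes was 312 without female weekly replicate 1, 18 without female daily replicate 1, 3 without female daily replicate 3, 200 with a minimum count of 50, 28 with the adipocyte score as a covariate, 23 with no filter, 2 without mitochondrially encoded genes and 1 with the replicate block. In males it was 10 in a fit of the compared groups alone, 8 with no filter and 1 without male daily replicate 2. No member was among any of these. At an unadjusted p under 0.05 there were 2401 genes in females, 3 of them members (Myh4, Myh8 and Myh7), and 1829 in males, with no member. Myh4 was higher in all daily than in all weekly libraries of both sexes, by 0.74 ± 0.23 (SE, adjusted p = 0.119) in females and 0.43 ± 0.23 (0.433) in males. How many of all genes separated in this way was not counted. DESeq2 did call Myh4 in females (0.73 ± 0.22, adjusted p = 0.0216), among 540 genes, and called 197 genes in males. Limma-voom called 2 and 0 genes and no member. Myh8 was also higher in all daily than in all weekly females, by 1.10 ± 0.35 (adjusted p = 0.122).

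Whether the sexes responded differently was tested by an interaction term. No gene was called for the daily or the weekly response (0% each), and no member had an unadjusted p under 0.05. The adjusted p of the members was at least 0.929. At an unadjusted p under 0.05 there were 638 genes for the daily and 357 for the weekly response, and DESeq2 called 2 and 0 genes. The standard errors were wide for the slow chain, 3.46 on the log2 scale for Myh7 against a median of 0.32 over all genes, so that a sex difference in Myh7 was not detectable with these mice.

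Between females and males on vehicle no member was called, against 0.765% of all genes. The SE was 2.88 on the log2 scale for Myh7 and 1.39 for Myh2, so large differences in these could have been missed. Over the 3 treatments no member was called either, against 7.61% of all genes. Myh8 came closest, with an unadjusted p under 0.05 in both, against 10.4% and 22.5% of all genes, and was higher in females by 0.82 ± 0.39 (SE, adjusted p = 0.474) on vehicle and 0.46 ± 0.21 (adjusted p = 0.207) over the 3 treatments. Myh4 differed by -0.22 ± 0.13 (adjusted p = 0.357). Of the 27 regulators 6 were lower in females and none higher, among them Tbx15, a T-box factor of glycolytic fibres, by -0.63 ± 0.11 (adjusted p = 0.00231), and Mef2a by -0.45 ± 0.09 (0.00463). The others were Eya1 (-0.54), Tead1 (-0.64), Maf (-0.46) and Hdac4 (-0.47). Of the 10 tested denervation and regeneration genes, Gadd45a, Myl4 and Actc1 were higher in females, by 0.65, 0.68 and 0.98. With the adipocyte score as a covariate, 3 of the regulators and 1 of the denervation and regeneration genes were called.

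The embryonic chain Myh3 stayed low in every group. In males it was at 0, 0.392 and 0.937 CPM with vehicle, 2.11, 1.15 and 1.74 with weekly and 0.973, 0.943 and 1.57 with daily prednisone. In females it was at 1.44, 0.109 and 0.537 CPM with vehicle, 3.35, 0.574 and 0.540 with weekly and 1.46, 1.82 and 1.45 with daily prednisone. Weekly males lay above all vehicle males. Daily males (from 0.943 CPM) and daily females (from 1.45) also did not overlap with vehicle (up to 0.937 and 1.44), by less than the counting error. No such difference passed the test, and these levels rest on 0 to 50 counts per library. Only 0.588% of its 75-base stretches occur in another member.

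Of the other sarcomeric myosins, 3 had their lowest levels in a pair of vehicle libraries. Myh13, Myh6 and Myh7b, chains of eye, heart and specialised muscle, were at 0, 0.0878 and 0.0878 CPM in male vehicle replicate 1 and at 0.109, 0 and 0.217 in female vehicle replicate 2, the 2 vehicle libraries lowest in Myh2. Male daily replicate 2, with less Myh2 than the latter, had them at 6.22, 4.59 and 4.15 CPM, near or above their medians of 6.23, 3.13 and 4.59. They were highest in female daily replicate 2, at 17.3, 12.5 and 13 CPM. Over the 18 libraries they followed Myh3 more closely (r of 0.83 for Myh13, 0.83 for Myh6 and 0.88 for Myh7b, a description) than Myh7 (0.47, 0.53 and 0.64), and the difference between these was not tested. Myh3 itself was near the floor in the same 2 vehicle libraries, at 0 and 0.109 CPM. These values of r may lean on those libraries, and r without them was not computed.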

How the data were processed

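RNA was measured in isolated quadriceps myofibers of 18 mice. The authors deposited raw read counts for each gene, which they made with TopHat2 2.1.0, Bowtie2 2.2.6 and HTSeq (submitters' processing notes, which list mm10 and mm9). Gene positions of the table match mm10. Strand setting and annotation release are not given in the sources used here, so genes that overlap on opposite strands, and the near-identical members, are uncertain. Of 75-base stretches, 16.3% (Myh2), 16.2% (Myh1), 9.37% (Myh4) and 0 (Myh7) recur in another member. The deposited gene length exceeds that of the message, so transcript lengths of GENCODE release 21 were used. Of 43430 identifiers, 42462 matched a symbol, and all 6 members did.

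Counts were filtered (filterByExpr, minimum count 10), scaled by TMM and tested by quasi-likelihood in edgeR 4.0.16 (R 4.3.3), robust, with 1 mean for each of 6 groups and all 18 libraries in the fit. P values were adjusted over 13596 genes (Benjamini-Hochberg), and an adjusted p under 0.05 was called. SEs come from the fold change and the F statistic. Tests are two-sided. Relations used 100000 permutations, and within groups all 46656 arrangements. Libraries held 10506661 to 14686654 counts. The edgeR and permutation scripts were first tested on simulated data with known changes.

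Members and lists were chosen with earlier results of these data known. Named genes are the members, the other myosin heavy chains, list genes that were called, and for each member the 5 genes of highest r, gene models without a name passed over. A called list gene is not reported here. Groups and replicate numbers come from the labels. Same-numbered libraries deviated together in all 3 pairs in female weekly and daily mice alone (r = 0.50, 0.48 and 0.44 over genes), with no shared litter or batch in the labels, and the numbers of the sample titles differ from those in the column names. Alternatives were DESeq2 1.42.0, its size factors in edgeR, limma-voom (limma 3.58.1), no filter, a minimum count of 50, a fit of only the groups compared, a block for the replicate number, mitochondrially encoded genes left out, the adipocyte score as a covariate, the length and GC trend removed (splines of 5 degrees of freedom), coding or deposited length, a prior count of 0.5 and leaving out libraries.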

Additional observations from a re-analysis of the deposited data

How the results depend on the processing

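No member was called, apart from Myh8 with daily prednisone in the mean of both sexes, under any alternative that kept all libraries or left out 1, except that DESeq2 called 1 member (Myh4) in daily against weekly females. The Myh8 count of 1 became 0 with the adipocyte score as a covariate, with the length and GC trend removed and, chosen after seeing the data, without the 2 vehicle libraries lowest in Myh2; the cause was not tested. With the replicate number as a block it stayed 1 (1.01 ± 0.26, adjusted p = 0.0181), and the block changed no other call of a member. In female weekly and daily mice, whose same-numbered libraries deviated together although no label ties them, a fit of these groups alone with the block gave 0.68 ± 0.20 for Myh4 (adjusted p = 0.145). Leaving out single libraries moved the Myh8 value between 0.88 and 1.21 (adjusted p 0.0102 to 0.038). Among members that were not called, the sign turned for Myh1 with weekly prednisone under the adipocyte covariate (-0.02) and without the 2 weekly libraries highest in Myh7 (-0.01), for Myh2 without these (-0.41), for Myh4 with daily prednisone with the length and GC trend removed (-0.06), and without single libraries, where Myh2 ranged from -0.05 to 1.72 and Myh4 from -0.02 to 0.18 with daily prednisone. The relation of Myh1 and Myh4 turned to r = 0.21 without the same 2 weekly libraries, and 16 of 27 relations then passed. The Myh4 share was 96.1% by coding and 97.3% by deposited length, and 96.0% to 96.9% without single libraries. With 3 mice per group, SEs of 1 and more for Myh7 and Myh2 limit what could be detected.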

Other observations

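Non-coding transcripts of the myosin loci were looked up after the values had been seen. 2310065F04Rik, which lies between Myh3 and Myh2 on chromosome 11, was lower in females than in males over the 3 treatments by -0.89 ± 0.14 on the log2 scale (SE, edgeR adjusted p = 0.000875). It was at 76.9, 112 and 85.3 CPM in vehicle males and at 41.1, 46.9 and 43.5 in vehicle females, with no overlap between the sexes in this group. Myhas, which is antisense and overlaps Myh1, ranged from 30.6 to 78.9 CPM, and 9430073C21Rik, which overlaps the end of Myh2 on the other strand, from 0.176 CPM in male vehicle replicate 1 to 11.7 in female weekly replicate 1, the lowest and highest libraries of Myh2 itself. Since the strand setting of the counts is not given, reads of Myh1 and Myh2 cannot be told apart from those of these 2 transcripts.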
